A study of Mus musculus with 10 samples.

Results

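The genes described here mark the GABAergic lineage of the ventral forebrain: the homeobox genes Dlx1, Dlx2, Dlx5, Dlx6 and Gsx2, the zinc finger gene Sp9, the GABA-synthesizing enzymes Gad1 and Gad2, and the vesicular GABA transporter Slc32a1. They were chosen by name, as the genes whose symbol was the only one the array's gene table gave for a probe set, and all 9 of 9 were found among 19938 genes measured. Each of them had 1 probe set. RNA from one side of the forebrain of 10 mouse embryos at embryonic stage E12.5, on a CD1/NMRI mixed background, was measured on 1 Affymetrix array per embryo. In 5 embryos, called dtg in the titles and transgenic in the labels, a constitutively active FoxO3 allele was expressed from the CaMKIIa promoter, which the submitters describe as specific to the forebrain. The other 5, called stg, were labelled as control mice, and the labels neither spell out these abbreviations nor say whether the controls carry 1 of the transgenes. All embryos came from 2 dams, with no record of which embryo came from which, so litter and group cannot be told apart. The tissue had been cut away from the main part of the thalamus, with a border at the hypothalamus and habenula. Which cells of the embryo expressed the transgene is not given in the sources used here.

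GABAergic neurons of the telencephalon are born in the ganglionic eminences, below the cortex. There Gsx2 is made by progenitors of the lateral and caudal eminences, and the Dlx genes follow in a cascade in which Dlx1 and Dlx2 come before Dlx5 and Dlx6. The Dlx genes lie as convergently transcribed pairs that share enhancers, and their products promote both the migration of interneurons and the use of the Gad enzymes. Sp9 acts in the same progenitors and young neurons. Gad1 and Gad2 make GABA from glutamate, and Slc32a1 loads it into synaptic vesicles. The Gad genes and Slc32a1 are also used by GABAergic neurons of the diencephalon and midbrain, some of which form without Dlx genes.

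The bases ahead of the start sites are shown for Dlx1, Dlx2 and Gad2, the members that spread most widely over the embryos (with Dlx5) and that moved together. The sequences are RefSeq's for GRCm38.p6, 250 bases upstream of each annotated start, read 5′ to 3′ along the gene's strand. Capitals mark CG dinucleotides, which are dense in CpG islands. Dlx1 was read from chr2:71529195-71529444 on the plus strand, Dlx2 from chr2:71546755-71547004 on the minus strand and Gad2 from chr2:22622077-22622326 on the plus strand.
Dlx1: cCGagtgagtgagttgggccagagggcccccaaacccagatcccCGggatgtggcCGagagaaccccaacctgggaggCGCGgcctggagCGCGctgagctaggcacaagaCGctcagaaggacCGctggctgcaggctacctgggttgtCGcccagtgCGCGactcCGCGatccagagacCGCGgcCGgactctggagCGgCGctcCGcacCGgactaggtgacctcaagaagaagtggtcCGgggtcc
Dlx2: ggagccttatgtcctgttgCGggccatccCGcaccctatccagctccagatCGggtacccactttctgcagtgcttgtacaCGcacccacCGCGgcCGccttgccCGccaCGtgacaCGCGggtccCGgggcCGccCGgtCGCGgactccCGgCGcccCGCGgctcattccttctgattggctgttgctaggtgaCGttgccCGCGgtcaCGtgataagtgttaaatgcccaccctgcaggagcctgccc
Gad2: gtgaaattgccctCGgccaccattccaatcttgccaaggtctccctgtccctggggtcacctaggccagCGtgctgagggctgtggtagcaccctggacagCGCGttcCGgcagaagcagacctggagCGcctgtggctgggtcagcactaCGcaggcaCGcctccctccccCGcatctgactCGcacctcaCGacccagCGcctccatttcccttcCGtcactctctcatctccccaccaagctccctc
The windows of Dlx1, Dlx2 and Gad2 held 22, 24 and 13 CG dinucleotides. Over the 7 members with a window in the table, the count ran from 12 (Slc32a1) to 24 (Dlx2), against a median of 6 over 32851 windows of this length. At least 12 were found in 33.5% of all windows. The letters TAATTA, a core that homeodomain proteins such as Dlx and Gsx2 bind, were looked for on both strands and occurred in 4.84% of all windows. GTAAACA, a core that forkhead proteins such as FoxO3 bind, occurred in 3.17% on either strand. Neither run of letters was in any of the 7 member windows, which says nothing of sites elsewhere.

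The arrays were even in scale, with medians over all probe sets between 5.36 and 5.39 on the log2 scale. Foxo3 itself ran from 6.76 to 7.13 in the transgenic embryos and from 6.50 to 6.87 in the controls, a difference of 0.34 ± 0.0846 (SE, n = 5 per group) with an adjusted limma p of 0.218. Its probe set cannot separate the transgene from the mouse gene. Control embryo 5 stood apart. Its mean correlation with the other arrays was 0.985, against 0.992 to 0.993 for the rest. Its mean over 5 mesenchyme genes (collagens, Lum and Dcn) was 9.10, against 6.87 to 8.17 in the other embryos. Its mean over 17 pan-neuronal genes was 7.56, against 8.51 to 9.10. Emx1, a marker of the dorsal telencephalon, was present in all embryos and highest in control embryo 5, at 7.90 against 6.75 to 7.45. Results that rest on that array are given with and without it.

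The members did not separate transgenic from control forebrains, and their most visible feature was a wide spread among the controls. In control embryos 1, 2 and 4, every member but Sp9 stood above all 5 transgenic embryos. Control embryo 5 was the lowest of all 10 for each of the 9 members. Control embryo 3 lay below every transgenic embryo for Dlx1, Dlx2, Dlx5, Dlx6, Gad2 and Sp9, and inside the transgenic range for Gad1, Gsx2 and Slc32a1. The transgenic embryos filled the middle, within a narrow band.

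Gsx2, the progenitor factor, measured 6.37, 6.29, 5.32, 6.22 and 4.51 in control embryos 1 to 5. In transgenic embryos 1 to 5 it measured 5.31, 5.54, 4.99, 5.31 and 5.63. All 5 transgenic values lay below controls 1, 2 and 4, and the groups overlapped through controls 3 and 5. In transgenic embryos 1, 3 and 4 and in controls 3 and 5, Gsx2 was below its array's median over all probe sets. Whether it was held by the background in those embryos was not tested. The means were 5.74 ± 0.808 (SD, n = 5) in controls and 5.36 ± 0.247 (SD, n = 5) in transgenic embryos, a difference of -0.38 ± 0.313 (SE) with an adjusted limma p of 0.841.

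Dlx1 had the fourth widest range over the 10 embryos of all 19938 genes. It measured 9.37, 9.38, 6.86, 8.98 and 4.82 in control embryos 1 to 5, and 7.97, 6.91, 7.75, 8.0 and 8.42 in transgenic embryos 1 to 5. Controls thus held both the highest and the lowest values, 4.57 apart on the log2 scale, while the transgenic embryos spanned 1.51. The group means nearly coincided, at 7.88 ± 2.01 and 7.81 ± 0.560 (SD, n = 5 each), with a difference of -0.07 ± 0.765 (SE) and an adjusted limma p of 0.989.

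Dlx2, the partner of Dlx1 on chromosome 2, measured 8.32, 8.16, 6.37, 7.75 and 5.11 in controls 1 to 5. In the transgenic embryos it measured 6.92, 6.47, 6.73, 7.06 and 7.20. The order of the controls was nearly that of Dlx1, and transgenic embryo 2 was again the lowest of its group. The difference was -0.26 ± 0.516 (SE, n = 5 per group), with an adjusted limma p of 0.944. The antisense transcript of the same locus, Dlx1as, measured 7.76, 7.76, 5.64, 7.26 and 4.64 in the controls and 6.20, 5.47, 6.49, 6.58 and 6.60 in the transgenic embryos. It followed the same order of controls, with a difference of -0.35 and an adjusted limma p of 0.926.

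Dlx5 and Dlx6 form the later pair of the cascade. Dlx5 measured 8.23, 8.13, 6.19, 8.0 and 5.11 in controls 1 to 5 and 7.29, 6.84, 7.28, 7.26 and 7.42 in transgenic embryos 1 to 5. Dlx6 measured 6.35, 6.33, 5.43, 6.18 and 4.76 in the controls and 5.85, 5.80, 5.85, 5.58 and 5.72 in the transgenic embryos. For both genes each transgenic value fell in the gap between controls 1, 2 and 4 on one side and controls 3 and 5 on the other. The differences were 0.09 ± 0.525 for Dlx5 and -0.05 ± 0.262 for Dlx6 (SE, n = 5 per group), with adjusted limma p of 0.984 and 0.982. Dlx3 and Dlx4, the pair that acts mainly outside the brain, did not follow this order. Dlx3 stayed between 4.79 and 5.22 in all embryos and Dlx4 between 4.57 and 4.91.

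Sp9 had the narrowest spread of the transcription factors. It measured 6.12, 6.38, 5.83, 6.23 and 5.31 in controls 1 to 5 and 5.92, 6.16, 6.07, 5.92 and 6.23 in the transgenic embryos. The groups overlapped, and controls 3 and 5 were the lowest of the 10. The difference was 0.09 ± 0.168 (SE, n = 5 per group), with an adjusted limma p of 0.944.

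Among the genes of GABA synthesis, Gad2 varied most, with the fifth widest range of all genes. It measured 9.38, 9.36, 7.95, 9.24 and 4.98 in controls 1 to 5 and 9.10, 8.08, 8.86, 8.48 and 8.85 in the transgenic embryos. Apart from control 5 the groups lay close together. With that array the difference was 0.49 ± 0.709 (SE, n = 5 per group; adjusted limma p of 0.918), and without it the difference was -0.31. Gad1 measured 7.96, 8.25, 7.35, 8.09 and 6.28 in the controls and 7.67, 6.89, 7.60, 6.91 and 7.61 in the transgenic embryos. Transgenic embryos 2 and 4 were the lowest after control 5. The difference was -0.25 ± 0.332 (SE, n = 5 per group), with an adjusted limma p of 0.908.

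Slc32a1, the vesicular transporter, measured 6.51, 6.59, 6.11, 6.51 and 5.73 in controls 1 to 5. It measured 6.17, 5.81, 6.18, 5.90 and 5.97 in the transgenic embryos. All 5 transgenic values lay below controls 1, 2 and 4. The difference of -0.28 ± 0.152 (SE, n = 5 per group) had the smallest adjusted limma p of the 9, at 0.735.

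**Figure D1:**
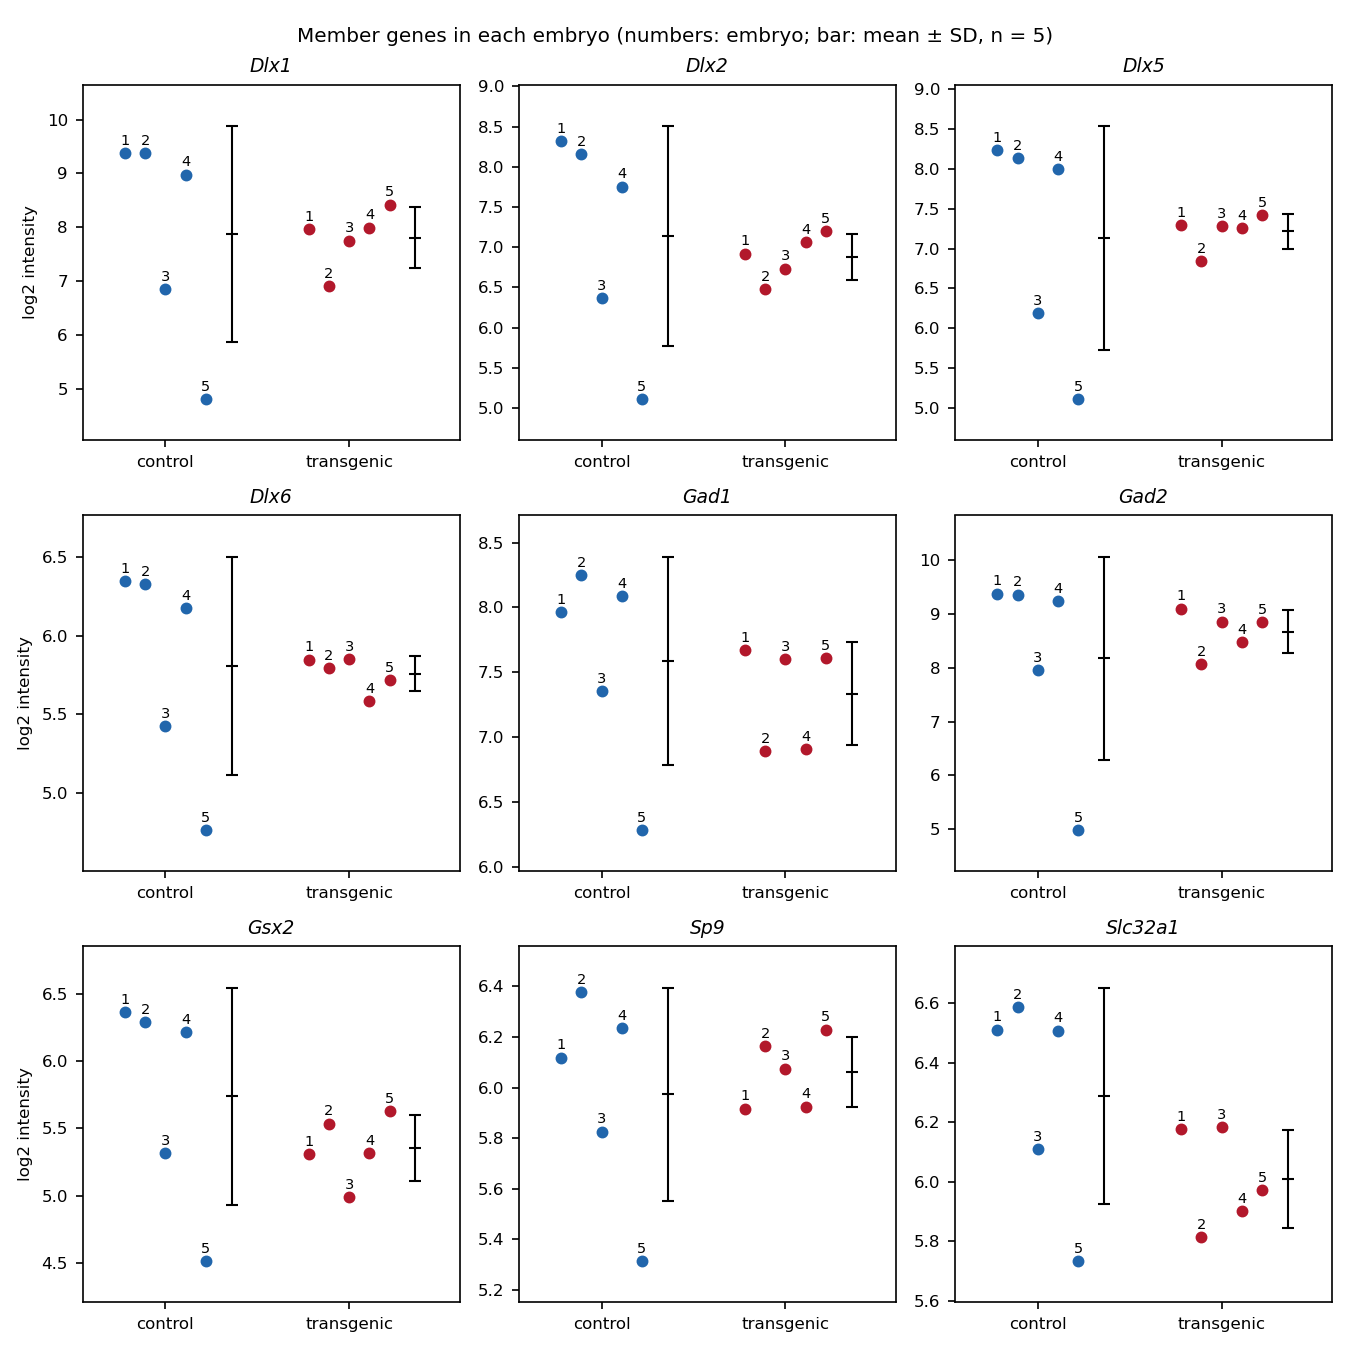
Log2 intensity of the 9 GABAergic genes in each embryo, with controls in blue and transgenic embryos in red, embryo numbers beside the points and bars for the mean ± SD (n = 5). Control embryo 5 is the lowest point in every panel (4.82 for Dlx1, 4.98 for Gad2), and the transgenic embryos form a tighter group than the controls.

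Over the whole list, 0 of 9 members passed an adjusted p of 0.05 in limma and 0 had an unadjusted p below 0.05. Of all genes, 21 passed (0.105%) and 1511 (7.58%) had an unadjusted p below 0.05. Exact permutation over the 252 ways to assign 5 of 10 embryos gave two-sided p between 0.151 (Slc32a1) and 0.952 (Dlx1), where the smallest possible is 0.00794. Groups that did not overlap were found for 319 genes (1.6%) and for 0 of the members. The 95% confidence interval of the difference ran from -1.74 to 1.60 for Dlx1 and from -1.06 to 2.04 for Gad2. Differences inside those bounds, 0 among them, were not excluded by these embryos. The interval was narrowest for Slc32a1, from -0.61 to 0.05. In bulk tissue, fewer GABAergic cells and less of these RNAs per cell cannot be told apart.

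The spread itself differed between the groups. The SD was larger in controls than in transgenic embryos for 9 of 9 members, and more than 3 times as large for 7 of them. Over all genes, 53.3% had the larger SD in controls and 4.21% passed 3 times. The ratio of SDs had a median of 3.59 over the members and 1.05 over all genes. It was largest for Dlx5, at 6.44, and Dlx6, at 6.20, and smallest for Gad1, at 2.02. Without control embryo 5 the control SD was still the larger for 8 of 9 members, with a median ratio of 1.98 against 0.907 over all genes, and the exception was Gad1 at 0.979. These ratios are a description, and the difference in spread was not tested.

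Leaving out control embryo 5 moved every member downwards. All 9 were then lower in transgenic embryos, with a median of -0.42 against -0.0045 over all genes. The differences were -0.84 for Dlx1, -0.77 for Dlx2, -0.69 for Gsx2, -0.58 for Gad1, -0.42 for Dlx5 and for Slc32a1, -0.31 for Dlx6 and for Gad2, and -0.08 for Sp9. In limma 0 of 9 passed the adjusted threshold, against 37 of all genes (0.186%). By the unadjusted p, 4 of 9 lay below 0.05 (Dlx2, Gad1, Gsx2 and Slc32a1), against 6.83% of all genes. The members moved together over the embryos, with a median r of 0.881 over their pairs, so these 4 are not independent results. The direction thus turned with this 1 array for Dlx5, Gad2 and Sp9. It turned for other members too when other controls were left out: Dlx1 was 0.31 without control embryo 2, and without control embryo 1 Dlx2 was 0.03 and Dlx6 was 0.09.

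The comparison was repeated with the mean of the 17 pan-neuronal genes as a covariate. That mean correlated with the average profile of the members, described further on, at r = 0.778 and rho = 0.552. Without control embryos 2 and 5 the r was 0.413. That list itself leaned the other way between the groups: 17 of 17 genes were higher in transgenic embryos, with a median of 0.34, and 13 of 17 without control embryo 5, with a median of 0.09. Limma called 0 of the 17, with 0 at an unadjusted p below 0.05 over all embryos. In the fit with this covariate all 9 members were lower in transgenic embryos. Gad1 fell by 0.70 ± 0.102 and Slc32a1 fell by 0.48 ± 0.0708 in log2 units (SE, n = 5 per group), with adjusted limma p of 0.0122 and 0.0132. The other 7 members did not pass. By the unadjusted p, 6 of 9 members and 8.11% of all genes lay below 0.05. Of all genes 94 passed the adjusted threshold (0.471%). Without control embryo 5 the same fit, added after the data were seen, gave falls of 0.70 for Gad1 and 0.48 for Slc32a1, with adjusted limma p of 0.0201 and 0.0223, and 88 genes passed (0.441%). By the unadjusted p, 7 of 9 members and 8.36% of all genes then lay below 0.05. As the members moved together, the counts of 6 and 7 members are not of independent genes. Of the regional genes described further on, the same covariate over all embryos gave calls for Nr2f2 (0.38), Foxp1 (0.47), Bcl11b (-0.64), Meis2 (-0.67), Neurod6 (-0.81) and Lhx5 (0.76), with adjusted limma p from 0.00529 to 0.0471. Slc32a1 minus the pan-neuronal mean of its own array ran from -2.93 to -2.62 in the transgenic embryos and from -2.43 to -1.82 in the controls, with no overlap. Such a separation was found for 67 genes (0.336%) and for 1 of the 9 members. Gad1 minus that mean ran from -1.62 to -1.27 in transgenic embryos and from -1.28 to -0.52 in controls, touching only at control embryo 5. The mean of 17 genes of the thalamus, hypothalamus and midbrain nearly separated the groups itself. It ran from 6.14 to 6.63 in transgenic embryos and from 5.13 to 6.25 in controls. With it as the covariate all 9 members were lower. A covariate so close to group leaves the group difference poorly determined, and the SE of Dlx1 grew from 0.765 to 1.09. Limma then called 0 of 9 and 0 of all genes (0%), with 2 of 9 members and 867 genes (4.35%) at an unadjusted p below 0.05. The mesenchyme mean as covariate, a fit added after the data were seen, left 3 members higher and 6 lower. Limma called 0 of 9 members and 101 of 19938 genes in that fit. Gad1 was -0.26 and Slc32a1 -0.28 there, with adjusted limma p of 0.575 and 0.159. By the unadjusted p, 2 of 9 members and 2114 of 19938 genes lay below 0.05.

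**Figure D2:**
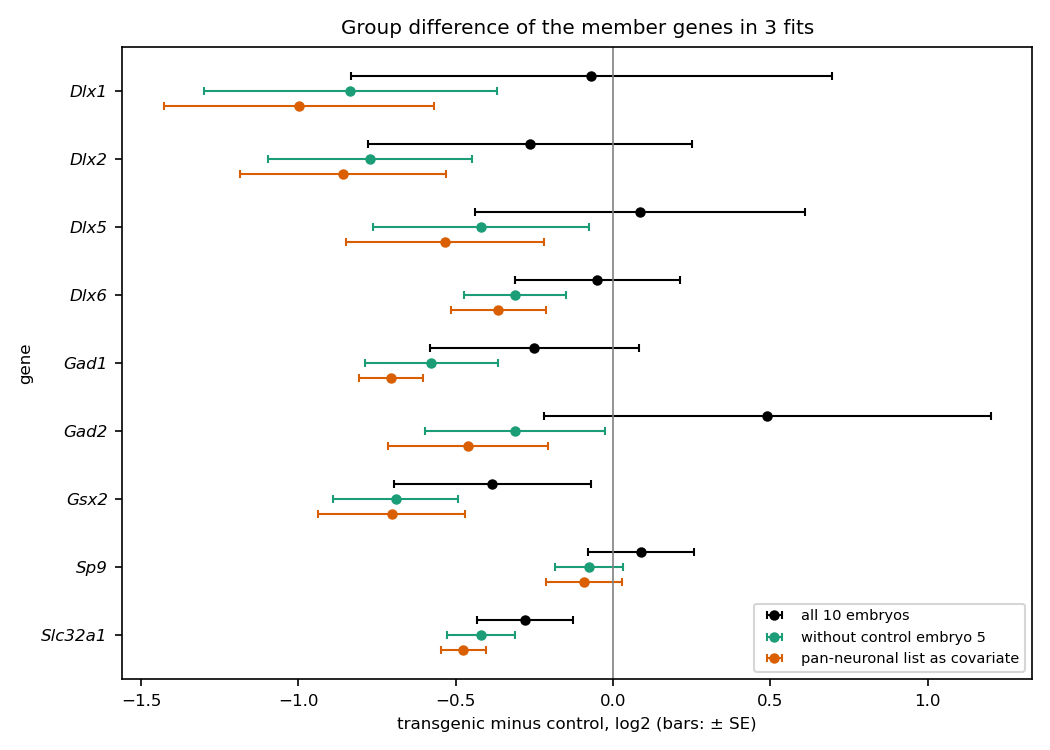
Difference of each GABAergic gene between transgenic and control embryos on the log2 scale, with bars of ± 1 SE, in the fit of all 10 embryos (black), without control embryo 5 (green) and after accounting for the pan-neuronal mean (orange). Zero is inside most black bars, and the orange points of Gad1 (-0.70) and Slc32a1 (-0.48) are the only members that passed the adjusted threshold.

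The members rose and fell together from embryo to embryo. All 36 pairs correlated positively over the 10 embryos, from r = 0.620 for Sp9 with Slc32a1 to r = 0.985 for Dlx1 with Dlx2, with a median of 0.881. Spearman's rho ran from 0.552 to 0.988 for the same 2 pairs, with a median of 0.812. With 100000 permutations and Benjamini-Hochberg adjustment over the 36 pairs, 36 passed 0.05 by r and 33 by rho. The share that would pass among pairs of all genes was not computed, so these counts are not shown to be particular to the members. For Dlx1 with Dlx2 both permutation p were 1e-05, the smallest that number of permutations can give, and both adjusted values were below 0.05 (0.00012 for r and 0.00036 for rho). For Sp9 with Slc32a1 they were 0.0457 by r and 0.105 by rho, before and after adjustment.

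The pairs differed in how closely they were tied by r. Dlx1, Dlx2 and Dlx5 were tied most closely, with r of 0.984 for Dlx1 with Dlx5 and 0.970 for Dlx2 with Dlx5, and Dlx5 with Dlx6 reached 0.963. Gsx2 was closest to Dlx2, at 0.929, and less close to Gad2, at 0.753. Gad1 was closest to Slc32a1, at 0.928, whereas Gad2 was closest to Dlx1 and Dlx5, both at 0.935. Ranks gave another order for some pairs: by rho, Dlx6 was closer to Gad2 (0.952) than to Dlx5 (0.891). Differences between these coefficients were not tested. Leaving out the 2 embryos farthest from the median of the first gene of each pair lowered the range to between 0.210 and 0.968, with a median of 0.799. The lowest was again Sp9 with Slc32a1. Sp9 also fell from 0.881 to 0.314 with Gad2, from 0.882 to 0.503 with Dlx5 and from 0.862 to 0.495 with Dlx1. It fell less with Dlx2, Dlx6, Gad1 and Gsx2. Slc32a1 rose with Dlx5 (0.786 to 0.928) and with Gad2 (0.713 to 0.921). Without control embryo 5 the median was 0.801, with a range from 0.451 to 0.975. With each group's mean removed the median was 0.924, with a range from 0.781 to 0.992.

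**Figure D3:**
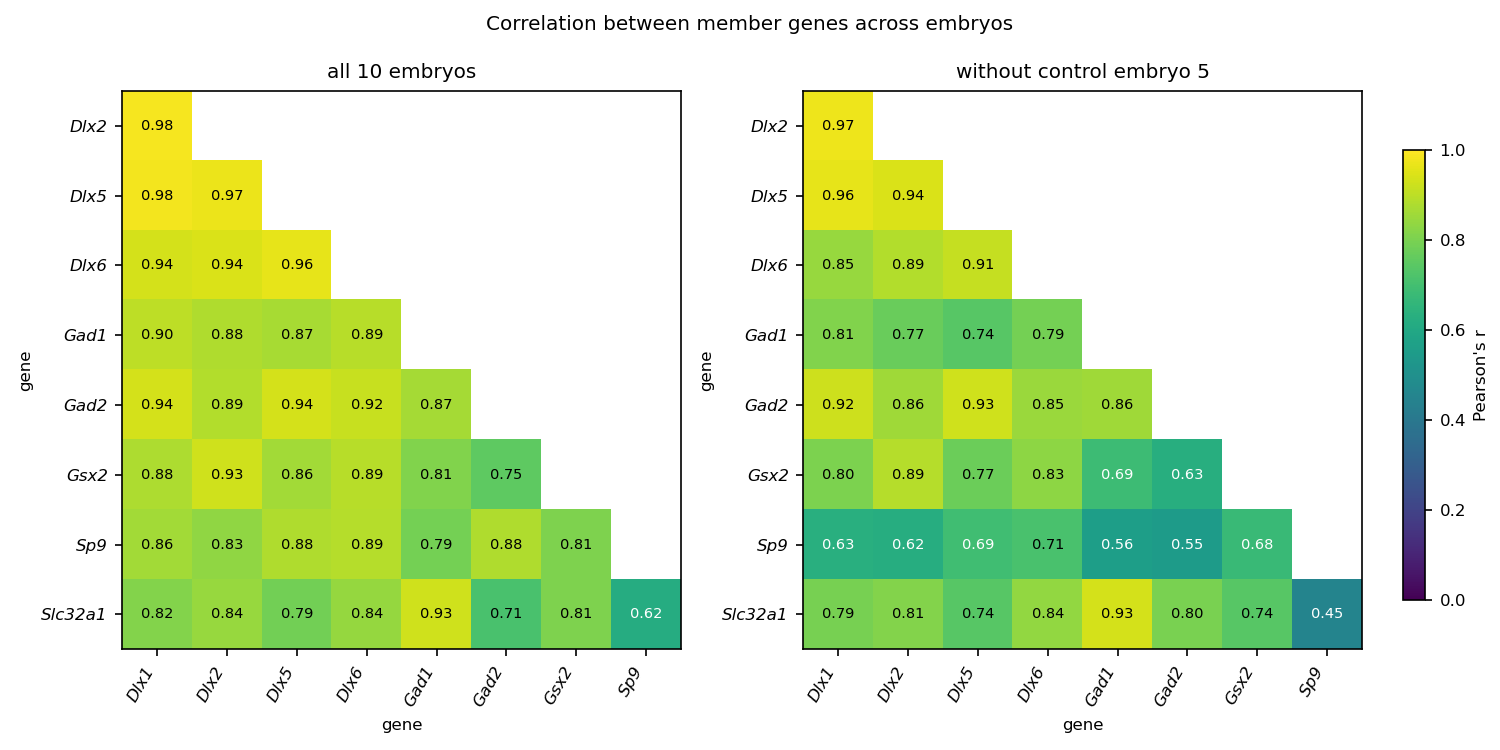
Pearson's r over embryos for each of the 36 pairs of GABAergic genes, over all 10 embryos (left) and without control embryo 5 (right), on a colour scale from 0 to 1. All cells are positive, and the lowest is Sp9 with Slc32a1 in both panels (0.620 and 0.451).

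Differences between members within the same array show where they parted, and only their change between embryos carries meaning, since each probe set has its own scale. Dlx1 minus Dlx2 lay between 0.44 and 1.23 in the transgenic embryos and between 0.50 and 1.22 in controls 1 to 4, and was -0.29 in control 5. Gad2 minus Gad1 lay between 1.18 and 1.58 in the transgenic embryos. It was 1.42, 1.12 and 1.16 in controls 1, 2 and 4, 0.60 in control 3 and -1.30 in control 5. Gad2 thus lay further below its level in the other embryos than Gad1 did in controls 3 and 5. In control 5, every member but Gad1 (6.28) and Slc32a1 (5.73) was below that array's median of 5.36 over all probe sets. Dlx1 was at 4.82, Dlx2 at 5.11, Dlx5 at 5.11 and Dlx6 at 4.76. Gad2 was at 4.98, Gsx2 at 4.51 and Sp9 at 5.31. Whether values that low were held by the background was not tested. Gad1 minus Dlx2 was 1.17 in control 5 and 0.99 in control 3, above the transgenic range of -0.15 to 0.87, and -0.35, 0.09 and 0.34 in controls 1, 2 and 4.

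To set other genes beside the members, each member was centred and scaled to an SD of 1 over the 10 embryos and the 9 profiles were averaged. This mean profile was 1.03, 1.15, -0.54, 0.89 and -2.06 in controls 1 to 5 and ran from -0.38 to 0.17 in the transgenic embryos. Each member correlated with it at 0.869 (Slc32a1) to 0.981 (Dlx1), which follows in part from its being in the average. Outside the members, 64 of 19929 genes (0.321%) had r above 0.9, and 119 had r below -0.9. The 8 most like it, by r over the 10 embryos, were Grik3 (0.984), a kainate receptor subunit, Slc18a2 (0.978), the vesicular monoamine transporter, the nuclear receptor gene Rorb (0.974), Zswim5 (0.972), the mitochondrial aspartate-glutamate carrier Slc25a12 (0.961), Fez1 (0.960), the neuropeptide gene Cck (0.960) and the zinc finger gene Zbtb20 (0.958). Grik3 measured 8.09, 8.10, 6.67, 7.78 and 5.37 in controls 1 to 5 and from 6.56 to 7.40 in the transgenic embryos. Its controls fell in the order seen for Dlx1, but control 3 lay inside the transgenic range. Without control embryo 5 these 8 still had r between 0.901 and 0.964. The 4 least like it were Lama2 (-0.970), a basement membrane laminin, Ahnak (-0.970), the integrin adaptor Tln1 (-0.967) and Oaf (-0.964).

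Lists of genes for other cell types and regions moved with this profile to different degrees. By r, the mean of 19 measured interneuron genes followed it most closely of the lists of other cell types (r = 0.978, rho = 0.939). Its r was 0.961 without control embryos 2 and 5, the 2 farthest from the median of the profile. The striatal list had r = 0.903 and rho = 0.915, and r = 0.755 without those 2 embryos. The subpallial patterning list had r = 0.860 and rho = 0.952, a higher rho than the interneuron list, and r = 0.852 without them. The mesenchyme list ran the other way, with r = -0.949 and rho = -0.927, and r = -0.855 without those 2 embryos. The endothelial list had r = -0.899, and -0.732 without them. The 5 mesenchyme genes were all measured, and their mean ran from 6.87 to 9.10 in controls and from 7.27 to 8.17 in transgenic embryos. The pan-neuronal mean had r = 0.778, which came down to 0.413 without those 2 embryos. The dorsal telencephalon list had r = -0.577 and the progenitor list -0.062, and -0.469 and -0.056 without those 2 embryos. The list of thalamus, hypothalamus and midbrain had r = 0.264 and rho = 0.03. Its r turned to -0.331 without those 2 embryos. These coefficients are over the same 10 arrays on both sides. The part of mesenchyme, neuron content or the plane of dissection in the members' levels was not tested.

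**Figure D4:**
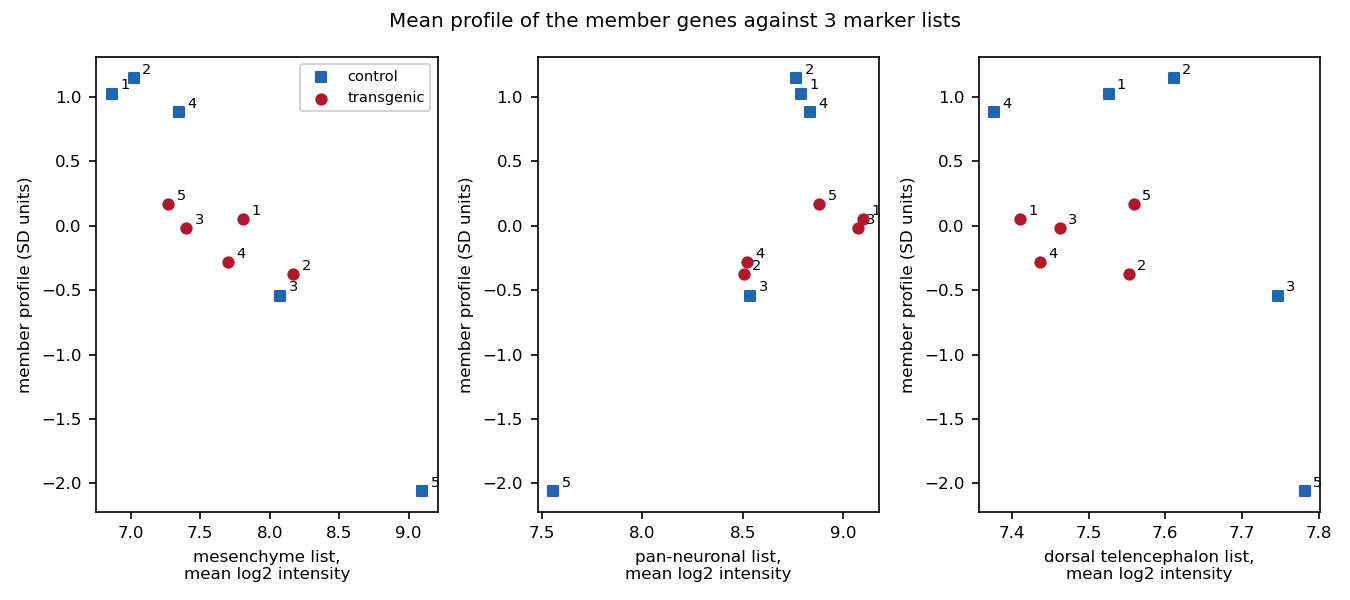
Mean profile of the 9 GABAergic genes (SD units) against the mean log2 intensity of the mesenchyme, pan-neuronal and dorsal telencephalon lists, 1 point per embryo with its number, controls as blue squares and transgenic embryos as red circles. The profile falls as the mesenchyme mean rises (r = -0.949), and control embryo 5 lies alone at a profile of -2.06.

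No other gene of GABA handling passed the test. Of 6 measured, 5 were higher and 1 lower in transgenic embryos, with a median of 0.05 against -0.0038 over all genes, and limma called 0 of 6, with 0 at an unadjusted p below 0.05. By the smallest p, the first 4 were the GABA transporter Slc6a11 (0.08), the synaptic scaffold gene Gphn (0.11), Aldh5a1 of GABA breakdown (-0.07) and the transporter Slc6a13 (0.13). Their adjusted limma p ran from 0.826 to 0.917.

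Of 8 measured genes of subpallial patterning, 4 were higher and 4 lower, with a median of 0.02, and limma called 0, with 1 at an unadjusted p below 0.05. That gene was Sp8, the close relative of Sp9, with a difference of -0.30 ± 0.106 (SE, n = 5 per group) and an adjusted limma p of 0.523. Sp8 was highest in control embryo 5, at 6.47, where Sp9 was lowest. Vax1 differed by -0.23, Gsx1 by 0.17 and Six3 by 0.10.

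The genes of cortical interneurons were mixed. Of 19 measured, 9 were higher and 10 lower, with a median of -0.03, and limma called 0, with 5 at an unadjusted p below 0.05. Nr2f2, a marker of the caudal eminence, measured 9.54, 9.32, 9.18, 9.53 and 8.59 in controls 1 to 5 and from 9.66 to 9.99 in the transgenic embryos, and the groups did not overlap. Its difference was 0.59 ± 0.158 (SE, n = 5 per group), with an adjusted limma p of 0.297. The chemokine receptor gene Cxcr4, which guides migrating interneurons, measured from 8.38 to 8.43 in the transgenic embryos and from 7.80 to 8.32 in controls (0.30, adjusted limma p of 0.463). The neuregulin receptor gene Erbb4 differed by 0.58 and Sox6, which acts in interneurons of the medial eminence, by -0.25, with adjusted limma p of 0.562 and 0.321.

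Striatal genes were also mixed. Of 14 measured, 8 were higher and 6 lower, with a median of 0.05, and limma called 0, with 5 at an unadjusted p below 0.05. Foxp2 ran from 7.20 to 7.79 in transgenic embryos and from 6.60 to 7.16 in controls, without overlap, with a difference of 0.74 and an adjusted limma p of 0.0846. Foxp1 differed by 0.38, Bcl11b by -0.54 and Meis2 by -0.57, with adjusted limma p of 0.143, 0.166 and 0.205. Without control embryo 5, Foxp1 rose by 0.44 (adjusted limma p of 0.0389).

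Genes of neighbouring regions were set beside these. Of 16 genes of the dorsal telencephalon, 10 were lower and 6 higher, with a median of -0.20, and 9 had an unadjusted p below 0.05. The 4 with the smallest p were Neurod6 (-0.77), Eomes (-0.58), Pax6 (0.22) and Slc17a6 (0.53), with adjusted limma p from 0.0867 to 0.420. Of 17 genes of the thalamus, hypothalamus and midbrain, 15 were higher and 2 lower, with a median of 0.79, and 10 had an unadjusted p below 0.05. Lhx5 differed by 0.98, Olig3 by 2.26, Dbx1 by 1.11 and Barhl2 by 0.95, with adjusted limma p from 0.0878 to 0.371. In both lists limma called 0 with all embryos, and without control embryo 5 Lhx5 rose by 0.81 (adjusted limma p of 0.0389). Transcription factors of GABAergic neurons of the diencephalon and midbrain gave 4 higher and 2 lower of 6, with a median of 0.11. Tal2, the widest of these, measured 4.67, 4.38, 7.90, 6.98 and 4.17 in controls 1 to 5 and from 5.43 to 7.35 in the transgenic embryos. It was thus highest in control 3, where the Dlx genes were low. Gata2, Gata3 and Helt differed by 0.19, 0.46 and 0.03. Limma called 0 of these 6, with 0 at an unadjusted p below 0.05.

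Some regional genes parted from the members at a given Dlx level. The genes in this paragraph were singled out after their values were seen. Isl1, made by striatal precursors and by other ventral neurons, measured 7.93, 7.75, 4.70, 7.67 and 4.55 in controls 1 to 5 and 7.79, 7.20, 7.81, 7.51 and 8.34 in transgenic embryos 1 to 5. For Isl1 all 5 transgenic embryos stood above controls 3 and 5 and lay on both sides of controls 1, 2 and 4, while their Dlx2 lay below controls 1, 2 and 4. Lhx8, a gene of the medial eminence and its cholinergic neurons, measured 6.72, 6.49, 4.90, 6.30 and 4.56 in the controls and 4.74, 4.61, 5.01, 5.08 and 5.28 in the transgenic embryos. Lhx6, which specifies interneurons of the medial eminence, measured 6.53, 6.65, 5.26, 6.41 and 5.13 in the controls and from 5.40 to 5.55 in the transgenic embryos. For both Lhx genes the transgenic embryos stood near controls 3 and 5. Nkx2-1, which lies upstream of them, ran from 5.32 to 6.03 in the transgenic embryos and measured 6.60, 6.87, 4.98, 6.25 and 5.44 in the controls.

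When Dlx2 was subtracted within each array, 5 of 19929 genes (0.0251%) separated the groups. Isl1, the thalamic gene Olig3, the hedgehog receptor gene Ptch1 and the hypothalamic gene Sim1 were higher relative to Dlx2 in every transgenic embryo, and Lhx8 was lower. Isl1 minus Dlx2 ran from 0.45 to 1.14 in transgenic embryos and from -1.66 to -0.08 in controls. Lhx8 minus Dlx2 ran from -2.18 to -1.73 in transgenic embryos and from -1.67 to -0.55 in controls, so that the gap between groups was small. Lhx8 itself lay below its array's median over all probe sets in all 5 transgenic embryos and in controls 3 and 5. Whether it was held by the background there was not tested. Lhx6 minus Dlx2 overlapped, at -1.79 to -1.01 against -1.79 to 0.03.

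**Figure D5:**
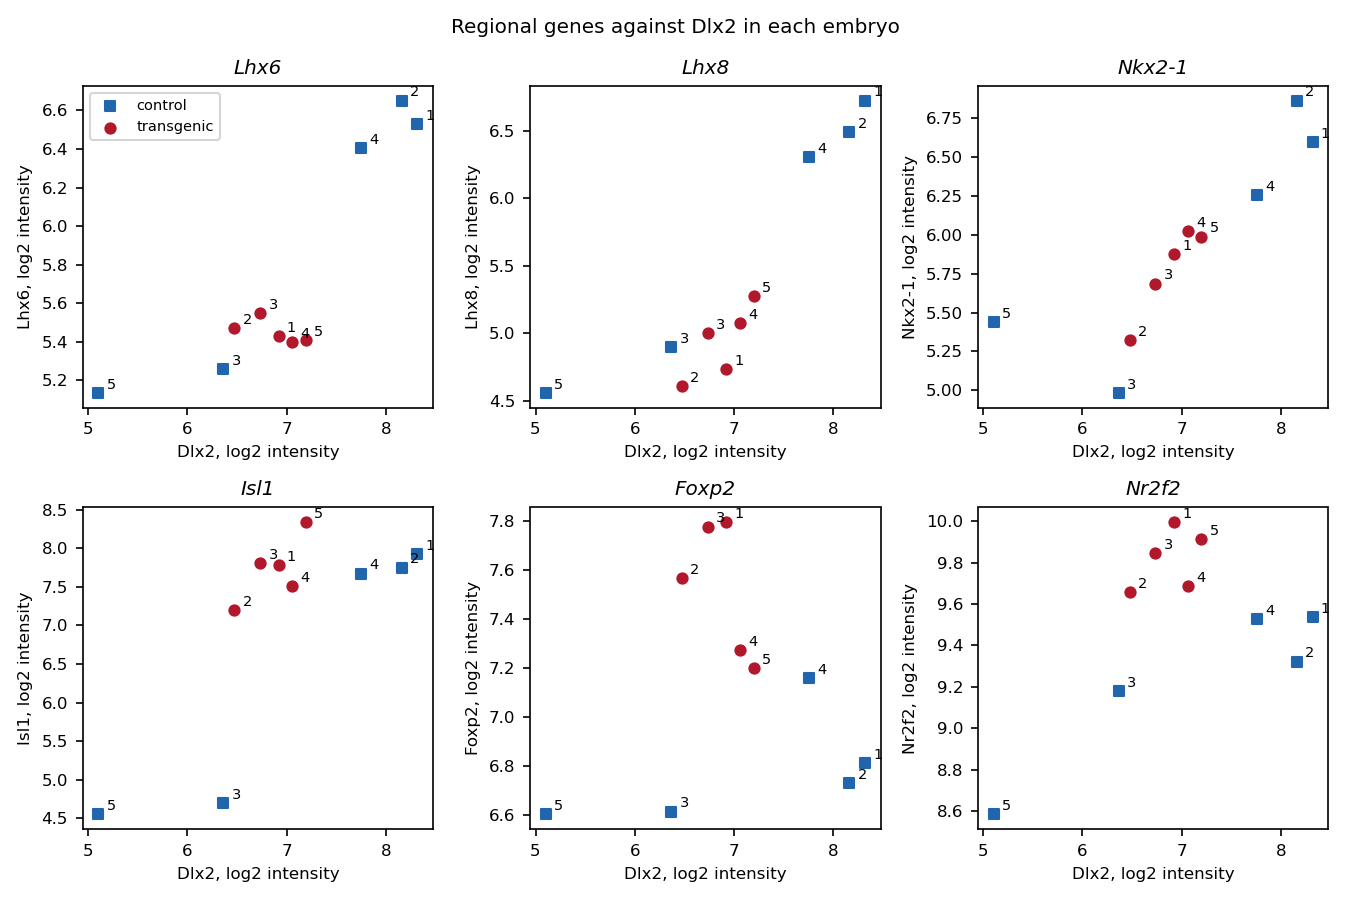
Log2 intensity of Lhx6, Lhx8, Nkx2-1, Isl1, Foxp2 and Nr2f2 against that of Dlx2, 1 point per embryo with its number, controls as blue squares and transgenic embryos as red circles. Transgenic embryos lie between 7.20 and 8.34 for Isl1, above control embryo 3 (4.70), and between 4.61 and 5.28 for Lhx8, below control embryos 1, 2 and 4.

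With the mean member profile as a covariate, a fit added after the data were seen, limma called 230 of 19929 genes (1.15%), 157 of them higher and 73 lower in transgenic embryos. Isl1 rose by 1.42, Lhx5 by 1.03 and Nr2f2 by 0.64, and Lhx8 fell by 0.73, with adjusted limma p of 0.0195, 0.00077, 0.00209 and 0.0334. The interneuron list held 2 calls upwards and 1 downwards of 19, the striatal list 3 and 2 of 14, the dorsal list 1 and 2 of 16, and the list of thalamus, hypothalamus and midbrain 3 and 0 of 17. Foxp2 rose by 0.76 and Bcl11b fell by 0.52, with adjusted limma p of 0.0183 and 0.0255. Without control embryo 5, 19 genes passed (0.0953%), 17 of them shared with the first fit in the same direction. Isl1 then rose by 1.98 (adjusted limma p of 0.000117) and Lhx5 by 0.98 (adjusted limma p of 0.0275). Nr2f2 at 0.56, Lhx8 at -0.51, Foxp2 at 0.78 and Bcl11b at -0.47 no longer passed, with adjusted limma p of 0.0568, 0.327, 0.159 and 0.273. No other embryo was left out of this fit.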

How the data were processed

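Total RNA from 10 forebrain samples was labelled with biotin in a whole-transcript sense target assay and hybridized to 1 array per embryo, per the labels' protocols. The deposited values are log2 intensity per probe set, which the authors computed in Affymetrix Expression Console (named in the submitters' processing notes). Its version, algorithm and settings are not given in the sources used here. The nearly equal array medians were taken as they stand, with no further normalization.

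Of 35556 probe sets, 21789 named 1 gene, 1621 several and 12146 none in the platform's gene table. For each of 19938 genes the probe set with the highest mean was used (999 genes had more than 1). Arrays do not count molecules, and the number of embryos limits the precision.

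Groups (5 transgenic, 5 control) came from the sample titles. The comparison used limma 3.58.1 (R 4.3.3) and a model with group alone, empirical Bayes variances, two-sided tests and Benjamini-Hochberg adjustment over all genes at 0.05. Single members also got an exact permutation test, and correlations 100000 permutations (SciPy 1.17.1, Python 3.11.15). The p-values measure the spread among these embryos. On simulated data for this comparison, with 200 of 19938 genes changed in each of 3 runs, 94.7% of changes of 1 and 79.3% of changes of 0.5 on the log2 scale were called, with 24 false calls in all. The simulation gave both groups the same SD and changed genes picked at random. The members spread more widely than most genes, so these shares do not carry over to them.

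The members, the 15 other gene lists and the tests were chosen with earlier results of these data known. Text names all members and other Dlx genes, up to 4 genes per regional or GABA list by the smallest p, and the 8 genes most and 4 least like the mean member profile, skipping clone names. Dlx6os1 and some genes of the other lists were not analysed here. Alternatives were the replicate block, each embryo left out, quantile normalization, median centring, a filter below the 40th percentile of gene means, the mean of all probe sets, other variance and weight models, sex, pan-neuronal or regional means as covariates, and a threshold of 0.1. The labels do not say whether same-numbered embryos pair, and the closing section gives the fit with the number as a block. Promoter windows are from RefSeq for GRCm38.p6, with none used here for Dlx5 and Dlx6.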

Additional observations from a re-analysis of the deposited data

Results flagged for a closer look

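Within each group of 5 embryos, the gap between the most extreme embryo and its nearest neighbour was divided by the range of the group for each of the 9 genes, 18 groups in all. For Dlx5, transgenic embryo 2 (6.84, against 7.26 to 7.42 in the others) had a ratio of 0.721, above Dixon's 95% critical value of 0.71. About 1 group in 20 passes by chance. Control embryo 5 did not pass for any gene, with control embryo 3 lying between it and the other controls.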

How the results depend on the processing

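With group alone, limma called 21 genes and 0 of the 9 members. Quantile normalization, median centring, the filter on dim genes, the mean of probe sets, trend and robust variances and sex as a covariate gave 19 to 24 genes and 0 members. Array weights gave 39 genes, a threshold of 0.1 gave 55, the pan-neuronal covariate 94 (2 members) and the regional covariate 0. Among alternatives chosen after seeing the data, the mesenchyme covariate gave 101, the member profile 230, the member profile without control embryo 5 gave 19, and the pan-neuronal covariate without control embryo 5 gave 88 (2 members). Leaving out 1 embryo gave 7 (without transgenic embryo 1) to 58 (without control embryo 4) genes, with 0 members throughout, and only without transgenic embryo 3 was the count within 1.5 times of 21. Covariation had a median r of 0.80 (without control embryo 5) to 0.90, against 0.88.

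With the replicate number as a block, limma called 2 genes and 0 members. The labels do not say that the number pairs embryos. In 0 of 5 cases did same-numbered embryos correlate best, with r of -0.246 to 0.238. So small a check cannot exclude a shared day or litter.

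Several directions turned. Dlx5 was -0.13 with array weights, and with the pan-neuronal covariate Dlx5 was -0.53 (-0.53 without control embryo 5), Gad2 -0.46 (-0.46), Sp9 -0.091 (-0.091), Helt -0.069 (-0.068) and Dlx3 0.020 (0.020). Helt was -0.016 with array weights. With the regional covariate Dlx5 was -0.94, Gad2 -1.45, Sp9 -0.28, Gphn -0.088, Slc6a13 -0.21, Sp8 0.095, Gsx1 -0.14, Six3 -0.022, Erbb4 -0.20, Slc17a6 -0.066, Barhl2 -0.074, Gata2 -0.39, Tal2 -1.75, Gata3 -1.40, Helt -0.24 and Dlx3 0.14. With the member profile and without control embryo 5, Slc6a13 was -0.18, Gata2 -0.093, Tal2 -0.61, Gata3 -0.48 and Helt -0.049. Leaving out single embryos gave ranges of -0.84 to 0.31 for Dlx1, -0.77 to 0.030 for Dlx2, -0.42 to 0.36 for Dlx5, -0.31 to 0.086 for Dlx6, -0.31 to 0.79 for Gad2, -0.078 to 0.19 for Sp9, -0.077 to 0.031 for Dlx3, -0.052 to 0.094 for Helt and -0.0069 to 0.28 for Slc6a13. The cause was not tested. Genes named by the smallest p in other lists gained calls too. Without control embryo 4, limma called Foxp2 (0.83), Neurod6 (-0.85), Eomes (-0.70), Lhx5 (1.08) and Olig3 (2.75), and without control embryo 5 Foxp1 (0.44) and Lhx5 (0.81). Array weights called Foxp1 (0.41) and Lhx5 (0.90), and a threshold of 0.1 Foxp2, Neurod6 and Lhx5. The pan-neuronal covariate called Nr2f2, Foxp1, Bcl11b, Meis2, Neurod6 and Lhx5, of which Meis2 and Neurod6 did not pass without control embryo 5. The mesenchyme covariate called those 6 and Foxp2, and the member profile called those 7, Erbb4, Eomes, Slc17a6 and Dbx1.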
